A study of Canis lupus familiaris with 6 samples.

Results

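The ErbB receptors (EGFR, ERBB2, ERBB3 and ERBB4) and 6 of their ligands (EGF, TGFA, AREG, EREG, HBEGF and NRG1) were examined in 3 canine mammary tumor cell lines. Members were taken by gene name, as every probe of the array that is not a control and whose gene name equals one of the 10 symbols. This gave 13 probes of 43603, for 8 of the 10 genes (8 of 35582 distinct names on the array): 4 for EGFR, 2 each for ERBB3 and NRG1, and 1 each for ERBB2, ERBB4, EGF, EREG and HBEGF. No probe carries the name TGFA or AREG. Where a gene had several probes, the brightest one represents it and the others are given beside it.

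ErbB receptors are tyrosine kinases of the cell surface that pair with each other when a ligand binds, and the paired receptors pass the signal on to the RAS-MAPK and PI3K-AKT pathways. EGF, TGFA, AREG, EREG and HBEGF are made as membrane-bound precursors that are cut free by proteases of the ADAM family and bind EGFR, while the neuregulins bind ERBB3 and ERBB4. ERBB2 has no known ligand of its own and ERBB3 has a weak kinase, so each of them signals mainly as a partner of another receptor, and in mammary tissue the family is known for its part in duct growth and in tumors that carry extra copies of ERBB2.

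P114 comes from an anaplastic mammary cancer, CMT-U27 from a simple carcinoma, and CMT-U309 from a spindle cell tumor of the mammary gland. Each was grown as a monoculture, or in co-culture with myeloid-derived suppressor cells (MDSCs), which are immature blood cells that dampen immune responses, sorted from the blood of healthy dogs and kept apart from the tumor cells in a transwell insert. The labels give at least 72 h of co-culture, and the study's methods a shorter time. Co-culture and monoculture RNA of a line were hybridized together to Agilent canine 4x44K arrays, with co-culture in Cy5 on one array and in Cy3 on its dye-swap, which makes 6 arrays, 12 channels and 6 RNA samples. Each line is represented by 1 co-culture and 1 monoculture RNA sample, so a line has no replicate of its own for the co-culture effect, and n is 3 lines for that comparison. No label says that the RNA samples of a line came from parallel cultures of one passage, and the arrays of each line lie on a slide of their own, so that line and slide cannot be told apart.

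Between 53.0% and 81.0% of spots were flagged by the scanner software as well above background in a channel. The dye-swap arrays of a line correlated poorly in their co-culture ratios over all probes (for P114 r = -0.39, for CMT-U27 0.26 and for CMT-U309 -0.09, across probes, which are not independent). Levels below are log2 of the processed signal, with all channels set to the same median. The level of one probe is not compared with that of another, since probes bind with different strength. In a line without signal well above background for a probe, the level is only an upper bound. In such RNA from whole cultures, fewer cells with a transcript and less transcript per cell cannot be told apart.

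Epithelial and mesenchymal markers set the lines apart. Of 9 epithelial genes with a probe, 8 were higher in CMT-U27 than in P114 and 8 were lower in CMT-U309 than in CMT-U27, while 9 of 11 mesenchymal genes were lower in CMT-U27 than in P114. Of all probes, 12.6% were called higher and 11.6% lower in CMT-U27 than in P114, and 15.7% lower in CMT-U309 than in CMT-U27. The summed signal of the epithelial list ran from 109166 to 128773 over the channels of CMT-U27, from 4297 to 5801 in P114 and from 4570 to 7764 in CMT-U309. The summed mesenchymal signal ran from 9135 to 12746 in CMT-U27, from 340951 to 486438 in P114 and from 489441 to 588088 in CMT-U309. Their part in the ErbB differences given here was not tested.

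The probes are the measured sequences, and the 4 shown first are those on which the receptor and epiregulin results rest. All are 60 bases long and are given 5′ to 3′ as printed on the array, with the place the files give them on canFam2, and none of their bases is in capitals.
EGFR, chr18:9028083-9028142, plus strand: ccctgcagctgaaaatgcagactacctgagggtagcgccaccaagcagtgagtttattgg
ERBB2, chr9:26088929-26088988, minus strand: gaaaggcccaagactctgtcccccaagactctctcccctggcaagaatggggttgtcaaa
ERBB3, chr10:3394911-3394970, plus strand: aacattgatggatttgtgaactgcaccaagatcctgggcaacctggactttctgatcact
EREG, chr13:65817525-65817584, plus strand: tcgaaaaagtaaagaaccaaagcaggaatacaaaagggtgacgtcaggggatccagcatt

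The receptors are paralogs, so the closest pair of probes of EGFR with ERBB3 and of EGFR with ERBB4 is shown next. This lets the difference between these family members be read base by base. Capitals mark the bases that are the same in both probes of a pair, in the best alignment without gaps over at least 40 bases. The second ERBB3 probe and the EREG probe share 24 of 40 aligned bases (60%), 8 of them in the longest run, and that pair is not shown. The second EGFR probe and the second ERBB3 probe share 33 of 57 aligned bases (57.9%).
EGFR, chr18:9024218-9024277, plus strand: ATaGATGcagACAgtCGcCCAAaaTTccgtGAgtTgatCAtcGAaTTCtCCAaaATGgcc
ERBB3, chr10:3402836-3402895, plus strand: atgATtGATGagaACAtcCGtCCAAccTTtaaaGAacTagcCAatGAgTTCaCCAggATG

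The third EGFR probe and the ERBB4 probe share 32 of 45 aligned bases (71.1%), which was the highest identity among the 70 pairs of probes of different members, with 7 identical bases in the longest run. Both lie over a splice junction, since their 60 bases span 5799 and 43803 bases of the genome.
EGFR, chr18:9002852-9008650, plus strand: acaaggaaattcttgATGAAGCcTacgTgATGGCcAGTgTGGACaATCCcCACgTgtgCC
ERBB4, chr37:22195722-22239524, minus strand: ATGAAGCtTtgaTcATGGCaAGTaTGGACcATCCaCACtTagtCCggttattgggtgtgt

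Among the lines, 5 of the 8 measured genes differed: EGFR, ERBB3, EREG, HBEGF and NRG1. This is the count of genes whose moderated F test over the lines had an adjusted p under 0.05 and whose largest difference exceeded 2-fold, and 37.5% of all 40873 probes tested passed the same rule. The fit (limma) used the co-culture and monoculture RNA of each line as its 2 samples, with the condition as a term. The 3 remaining genes were ERBB2, which was bright in every line and stayed within 2-fold, and ERBB4 and EGF, which were near background everywhere.

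**Figure D1:**
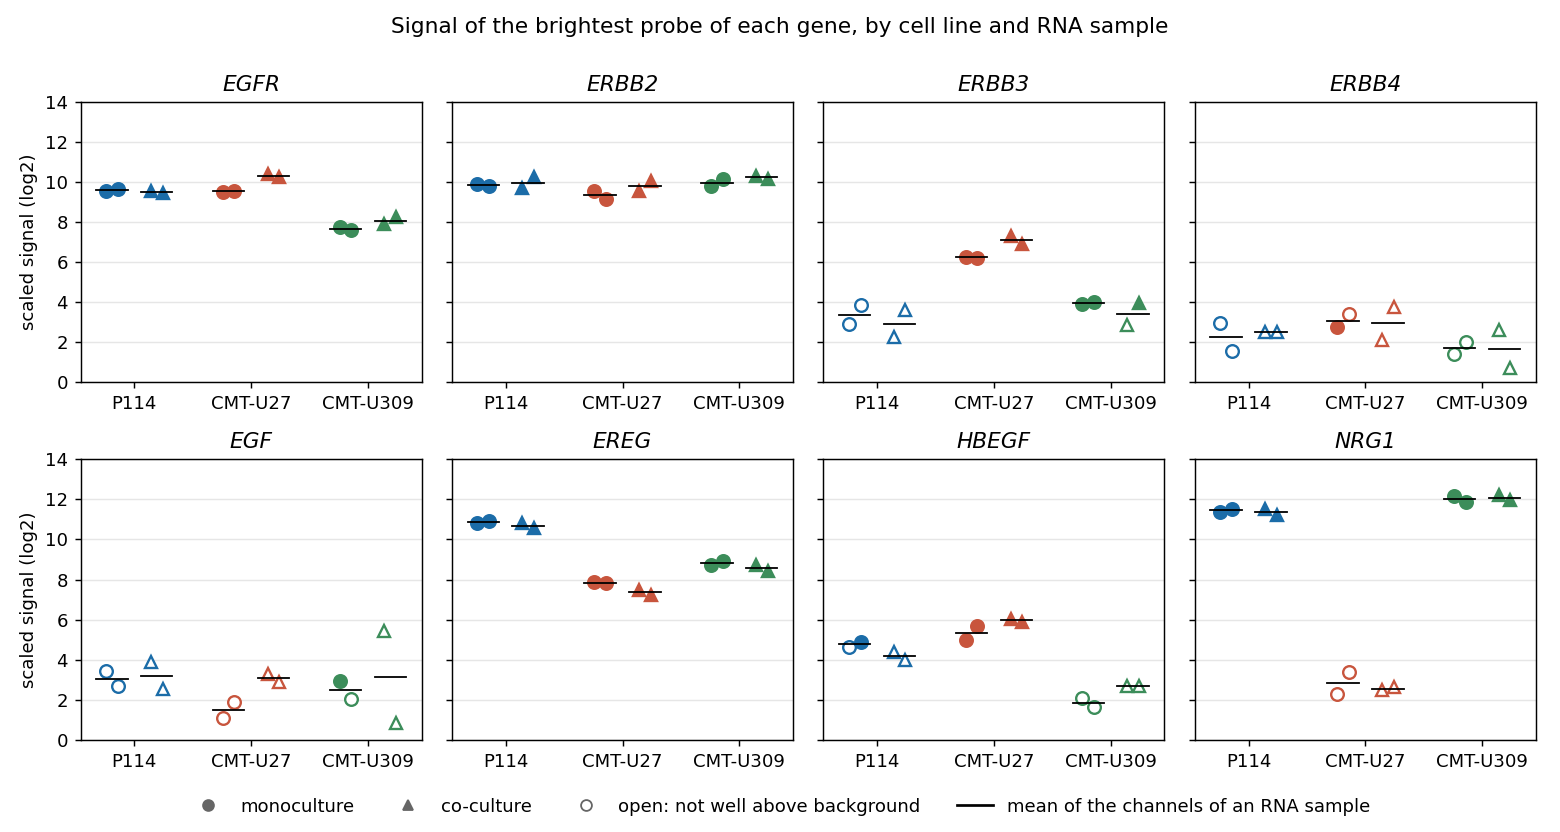
Scaled signal (log2, y axis) of the brightest probe of each of the 8 genes in P114, CMT-U27 and CMT-U309 (x axis). Circles are monoculture and triangles co-culture channels, Cy3 at the left and Cy5 at the right of each pair, open symbols were not well above background, and bars are the mean of an RNA sample. NRG1 lies above 11 in P114 and CMT-U309 and below 4 in CMT-U27, ERBB3 above 6 only in CMT-U27, and ERBB2 between 9.13 and 10.30 throughout.

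EGFR, the receptor for EGF, TGFA, AREG, EREG and HBEGF, was lowest in CMT-U309. Its brightest probe had a level of 9.59 in monoculture and 9.48 in co-culture of P114, 9.54 and 10.31 in CMT-U27, and 7.67 and 8.06 in CMT-U309. The 4 channels of CMT-U309 (7.61 to 8.23) did not overlap those of P114 (9.45 to 9.65) or CMT-U27 (9.52 to 10.37). The ranges of P114 and CMT-U27 overlapped. The 4 channels of a line are its 2 RNA samples in both dyes. The share of all probes with ranges that do not overlap was not counted. The mean in CMT-U309 was 7.86 ± 0.27 (SD, n = 2 RNA samples) against 9.54 ± 0.07 in P114 and 9.92 ± 0.54 in CMT-U27. This is a difference of -1.67 from P114 (SE 0.20, 3.19-fold, limma adjusted p = 0.000183) and of -2.06 from CMT-U27 (SE 0.20, 4.17-fold, adjusted p = 1.84e-05). Between CMT-U27 and P114 the difference was 0.39 (SE 0.20, adjusted p = 0.153).

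The other 3 EGFR probes, which lie upstream in the same transcript, gave the same order. CMT-U309 was called lower than both other lines with each of them, by 2.03-fold to 3.31-fold against P114 and by 3.58-fold to 6.09-fold against CMT-U27. Their differences between CMT-U27 and P114 were 0.88, 0.78 and 0.82 on the log2 scale, with adjusted p of 0.00944, 0.0388 and 0.0361, and stayed below 2-fold. By line means, CMT-U27 and P114 thus had adjacent levels, with CMT-U27 the higher by each of the 4 probes and by less than 2-fold. In monoculture alone the brightest probe was slightly higher in P114 (9.59 against 9.54), and the other 3 were higher in CMT-U27. Without the CMT-U27 co-culture sample, the log2 difference of CMT-U27 minus P114 for the brightest probe was 0.07.

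ERBB2, the partner receptor without a ligand, was well above background in all 12 channels. Its level was 9.84 in monoculture and 9.96 in co-culture of P114, 9.33 and 9.78 in CMT-U27, and 9.96 and 10.22 in CMT-U309. The channel ranges of the 3 lines overlapped. The largest difference was between CMT-U309 and CMT-U27, at 0.53 on the log2 scale (SE 0.15, 1.45-fold, adjusted p = 0.0131), below the 2-fold limit. The F test over the lines gave an adjusted p of 0.0282. CMT-U27 and P114, and P114 and CMT-U309, are neighbours in this order that the fit did not separate (adjusted p = 0.0865 and 0.371). Without scaling of the channels, CMT-U309 lay above P114 by 0.96 (adjusted p = 0.000404).

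ERBB3, the neuregulin receptor with a weak kinase, was well detected in CMT-U27. Its brightest probe had a level of 6.23 in monoculture and 7.10 in co-culture of CMT-U27, and was well above background in 4 of 4 channels there. In CMT-U309 the levels were 3.97 and 3.40, with 3 of 4 channels well above background. In P114 they were 3.37 and 2.94, with 0 of 4. All 4 channels of CMT-U27 lay above all 8 of the other lines, and the share of all probes that do so was not counted. CMT-U27 was 7.91-fold above CMT-U309 (log2 difference of CMT-U309 minus CMT-U27 -2.98, SE 0.38, adjusted p = 0.000126) and at least 4.75-fold higher than P114 (adjusted p = 5.01e-05). For this bound the mean of the brighter line is divided by a floor for the dim one, which is on each array whichever is higher, the dim probe's own value or the weakest value flagged as well above background (normalized by loess and Aquantile). No order can be given for P114 and CMT-U309.

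The second ERBB3 probe was well above background in 4 of 4 channels of CMT-U27 and in 0 of 8 of the other lines. Its level in CMT-U27 was 4.45 in monoculture and 5.61 in co-culture. CMT-U27 was at least 1.70-fold higher than P114 and at least 3.67-fold higher than CMT-U309 (adjusted p = 0.00115 and 0.000136). Its aligned bases are printed above beside those of the second EGFR probe, which was well above background in 12 of 12 channels. Binding of EGFR transcripts to the ERBB3 probe was not tested.

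ERBB4, the other neuregulin receptor, was well above background in 1 of 12 channels, the Cy3 channel of CMT-U27 monoculture. Its levels lay between 0.72 and 3.77, and no fold is given. The fit called CMT-U309 lower than CMT-U27 (adjusted p = 0.0415), but the difference lies within signals that are not well above background and its bound is under 1-fold. The third EGFR probe, the closest to it in sequence, was well above background in 11 of 12 channels.

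Among the ligands, NRG1, a neuregulin that binds ERBB3 and ERBB4, differed most between the lines. Its brightest probe had a level of 11.46 in monoculture and 11.37 in co-culture of P114, and of 12.02 and 12.09 in CMT-U309. In CMT-U27 the values were 2.85 and 2.56, with 0 of 4 channels well above background. P114 was at least 182-fold higher than CMT-U27 (adjusted p = 6.40e-10) and CMT-U309 at least 318-fold higher (adjusted p = 2.88e-10). With normexp background correction, whose offset of 50 shrinks differences from dim signals, the log2 difference of CMT-U27 minus P114 was -3.76 in place of -8.71, and that of CMT-U309 minus CMT-U27 was less than 5 in place of 9.35, so the size of the fold depends on the background correction. CMT-U309 exceeded P114 by 0.64 on the log2 scale (SE 0.16, 1.56-fold, adjusted p = 0.0126), below the 2-fold limit.

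The second NRG1 probe, which lies over a splice junction nearer the start of the same transcript, gave 9.34 and 9.49 in P114 and 3.13 and 3.20 in CMT-U27. In CMT-U309 it gave 10.01 and 10.33, with 2 of 2 usable channels well above background, because its spot on the array with co-culture in Cy5 was marked an outlier and left out of the fit. CMT-U27 was lower than P114 (adjusted p = 5.08e-09) and lower than CMT-U309 (adjusted p = 2.08e-09), and no fold is given since 1 of 4 channels of CMT-U27 was well above background. The line with the highest ERBB3 signal was thus the one without signal of the brightest NRG1 probe, while CMT-U309 had NRG1 signal and a lower ERBB3 signal. With 3 lines this is a description and no test was made of it.

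EREG, which encodes epiregulin, a ligand of EGFR and ERBB4, was bright in all lines and highest in P114. Its level was 10.88 in monoculture and 10.69 in co-culture of P114, 7.84 and 7.37 in CMT-U27, and 8.84 and 8.56 in CMT-U309. None of the channel ranges of the lines overlapped, and the share of all probes for which this holds was not counted. P114 exceeded CMT-U27 by 9.04-fold (log2 difference of CMT-U27 minus P114 -3.18, SE 0.15, adjusted p = 1.26e-07) and CMT-U309 by 4.23-fold (CMT-U309 minus P114 -2.08, SE 0.15, adjusted p = 5.71e-06). CMT-U309 exceeded CMT-U27 by 2.14-fold (SE 0.15 on the log2 scale, adjusted p = 0.000207).

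HBEGF, a heparin-binding ligand of EGFR and ERBB4, was highest in CMT-U27. Its level was 5.36 in monoculture and 5.98 in co-culture of CMT-U27, where 4 of 4 channels were well above background, 4.77 and 4.18 in P114, where 1 of 4 was, and 1.86 and 2.67 in CMT-U309, where 0 of 4 were. The channels of CMT-U309 lay below all others, and those of CMT-U27 above all others. The share of all probes with such a separation was not counted. CMT-U27 was at least 5.35-fold higher than CMT-U309 (adjusted p = 6.25e-05). P114 was also called higher than CMT-U309 (adjusted p = 0.00220), with no fold given since 1 of 4 channels of P114 was well above background. The step from P114 to CMT-U27 was 1.19 (SE 0.40, 2.29-fold, adjusted p = 0.0348) and rests on 1 detected channel in P114. Without the P114 co-culture sample it was 0.54 (adjusted p = 0.249), without CMT-U27 co-culture 0.94 (adjusted p = 0.203), and without CMT-U27 monoculture 1.45 (adjusted p = 0.0516).

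EGF, the ligand that gave EGFR its name, was well above background in 1 of 12 channels, the Cy3 channel of CMT-U309 monoculture. Its levels lay between 0.85 and 5.44, and the F test over the lines gave an adjusted p of 0.341. No fold is given.

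**Figure D2:**
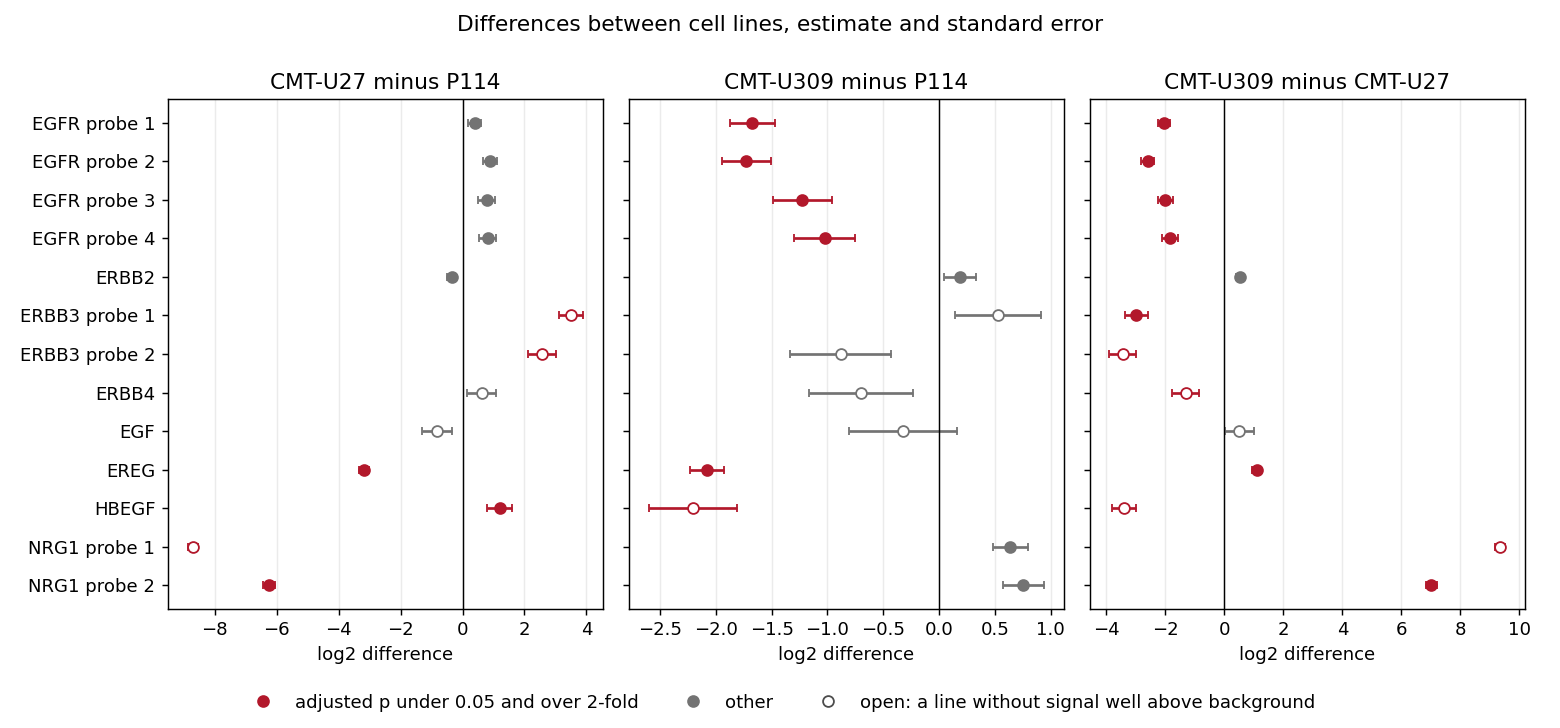
Differences between the lines (log2, x axis, with its own range in each panel) for all 13 probes (y axis), with the standard error of the fit. Red marks an adjusted p under 0.05 with over 2-fold, and open symbols mark probes without signal well above background in at least one of the lines compared. The 4 EGFR probes lie to the left in both comparisons of CMT-U309, and the 2 NRG1 probes lie far to the left in CMT-U27 minus P114 and far to the right in CMT-U309 minus CMT-U27.

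By pair of lines, the fit called 4 of the 8 genes between CMT-U27 and P114, 2 higher and 2 lower, where it called 24.2% of all probes (12.6% higher, 11.6% lower). Between CMT-U309 and P114 it called 3, all lower, against 14.5% of all probes (6.85% higher, 7.69% lower). Between CMT-U309 and CMT-U27 it called 6, 2 higher and 4 lower, against 28.9% of all probes (13.3% higher, 15.7% lower). The 4 lower include ERBB4, which was near background. The median difference of the 8 genes was 0.02, -0.51 and -0.41 in the 3 comparisons, and that of all probes was -0.15, -0.15 and -0.04.

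In co-culture with MDSCs, none of the 8 genes passed the thresholds of the study's methods, a p under 0.05 without adjustment and a fold change over 2. Of all probes, 1.03% passed with a higher co-culture level and 0.191% with a lower one. After adjustment 0 of 40873 probes had a p under 0.05 in limma. Without adjustment and without the fold limit, 9.94% of all probes had a limma p under 0.05 (5.81% higher, 4.12% lower). So did 2 of the 8 representative probes, ERBB2 (higher) and EREG (lower). With the methods' t-test in place of limma, the unadjusted p was 0.0972 for ERBB2 and 0.0668 for EREG. The median log2 ratio of the 8 genes was 0.15, and that of all probes was 0.01.

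A ratio of a line is taken as measured where the probe was well above background in at least one channel on each of its arrays. ERBB2, EREG and the 4 EGFR probes were measured in all lines, the ERBB3, HBEGF and NRG1 probes in some, and ERBB4 and EGF in none. Ratios below are log2 of co-culture over monoculture, first on the array with co-culture in Cy5 and then on its dye-swap.

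**Figure D3:**
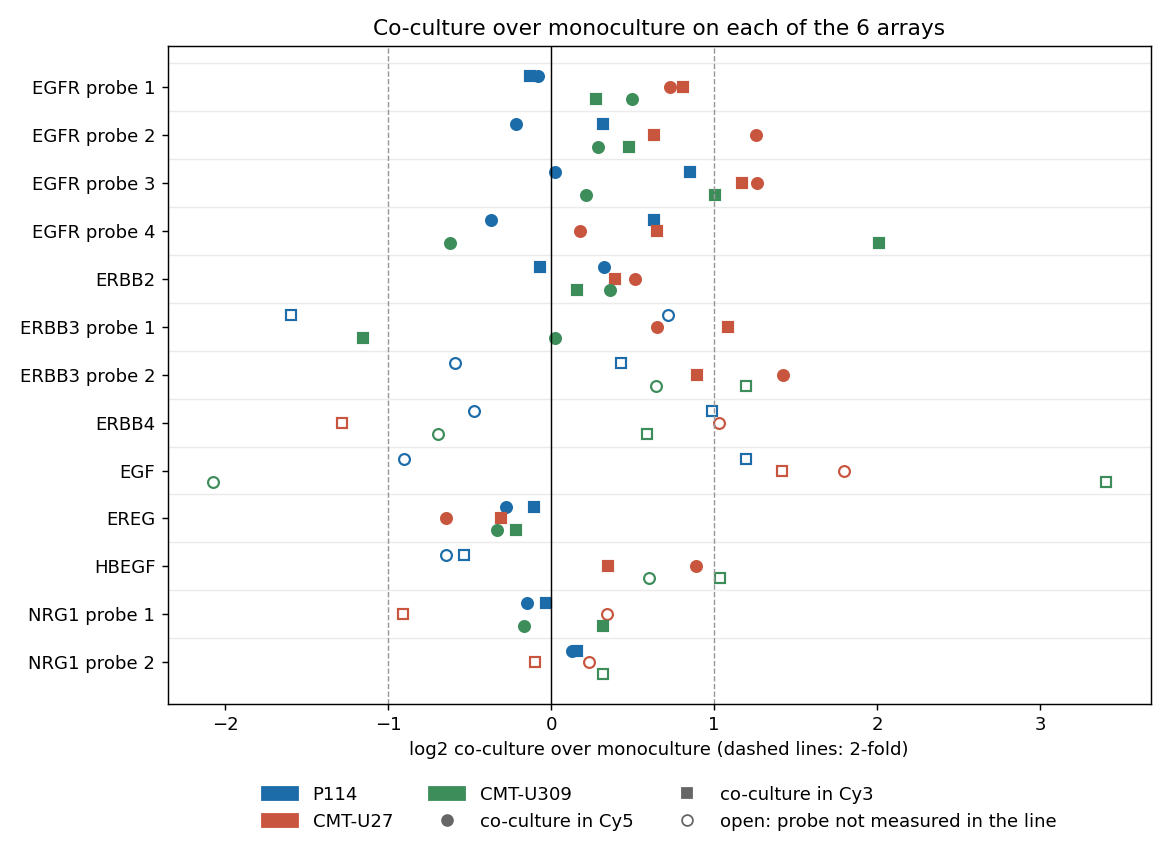
Log2 ratio of co-culture over monoculture (x axis) on each of the 6 arrays for the 13 probes (y axis). Colors mark the lines, circles the arrays with co-culture in Cy5, squares their dye-swaps, open symbols probes not measured in that line, and dashed lines a 2-fold change. EREG lies left of 0 on all 6 arrays, ERBB2 and EGFR mostly right of 0, and the open symbols of EGF and ERBB4 spread over both sides.

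For EGFR, the brightest probe gave -0.08 and -0.13 in P114, 0.73 and 0.81 in CMT-U27, and 0.50 and 0.28 in CMT-U309. Co-culture was therefore higher on the 4 arrays of CMT-U27 and CMT-U309 and slightly lower on both of P114, and 22.7% of all probes were likewise higher on both arrays of one line and lower on both of another. The mean over the lines was 0.35 (SE 0.16, 1.27-fold, adjusted p = 0.501). In CMT-U27 the mean ratio corresponded to a 1.70-fold level in co-culture, in CMT-U309 to 1.31-fold and in P114 to 0.930-fold.

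The second EGFR probe gave -0.22 and 0.32 in P114, 1.26 and 0.63 in CMT-U27, and 0.29 and 0.48 in CMT-U309. The third gave 0.02 and 0.85, 1.26 and 1.17, and 0.22 and 1.00 in the same order. The fourth gave -0.37 and 0.63, 0.18 and 0.65, and -0.62 and 2.01. Higher values in co-culture were thus found on both arrays of CMT-U27 with each of the 4 probes, where 33.1% of all probes were higher on both arrays of that line and 29.6% were lower on both, and in P114 only the third probe was above 0 on both arrays. The means over the lines were 0.46 (SE 0.18), 0.75 (SE 0.22) and 0.41 (SE 0.22), with limma adjusted p of 0.498, 0.498 and 0.526. The third probe was higher on 6 of 6 arrays, as were 2.55% of all probes, and the probes share a transcript and are no replicates of each other.

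ERBB2 gave 0.32 and -0.07 in P114, 0.52 and 0.39 in CMT-U27, and 0.36 and 0.16 in CMT-U309. It was higher in co-culture on 5 of 6 arrays, by less than 1.5-fold on each. The mean over the lines was 0.28 (SE 0.12, 1.21-fold, adjusted p = 0.498).

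The brightest ERBB3 probe gave 0.65 and 1.08 in CMT-U27, a 1.82-fold level in co-culture, and the second ERBB3 probe gave 1.42 and 0.89, or 2.23-fold. Both probes were thus higher in co-culture on both arrays of the line in which ERBB3 was well detected, as were 33.1% of all probes. Further probes described as ERBB3, given below, went both ways in that line. In CMT-U309 the brightest probe gave 0.02 and -1.16, close to background and with no shared direction. With 1 pair of RNA samples a line has no test of its own. For ERBB4 no ratio was measured.

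EREG gave -0.27 and -0.10 in P114, -0.64 and -0.31 in CMT-U27, and -0.33 and -0.22 in CMT-U309. It was lower in co-culture on 6 of 6 arrays, as were 1.72% of all probes. The mean over the lines was -0.31 (SE 0.12, 1.24-fold lower, adjusted p = 0.498), and no array reached 2-fold.

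HBEGF gave 0.89 and 0.35 in CMT-U27, a 1.54-fold level in co-culture, and this was the only line in which its ratio was measured. Its unmeasured ratios were -0.65 and -0.54 in P114 and 0.60 and 1.04 in CMT-U309. The brightest NRG1 probe gave -0.15 and -0.03 in P114 and -0.17 and 0.32 in CMT-U309, so that its level in co-culture was 0.940-fold and 1.05-fold that of monoculture in the lines with signal. The second NRG1 probe gave 0.13 and 0.16 in P114. EGF gave 4 positive and 2 negative ratios between -2.08 and 3.40, none of them measured.

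Transcripts of MDSCs could enter the co-culture RNA only if cells or RNA passed the insert, and the myeloid markers were read for this. None of the 17 myeloid genes with a probe was called in co-culture. Of the 17, ITGAM (the CD11b integrin), SPI1 and LYZ were well above background in 0 of 12 channels, and CD68, S100A8 and ITGB2 (the partner of CD11b) in all 12, monoculture and co-culture alike. PTPRC (the CD45 antigen of leukocytes) was well above background in 3 channels, of which 1 was a co-culture channel. MPO, an enzyme of granulocytes, was so in 4 of 4 channels of CMT-U309, with a mean level of 9.61, and CYBB in 11 of 12 channels over the lines. The summed signal of the list was 1680 to 2015 in co-culture and 1731 to 1917 in monoculture channels of P114, 19511 to 19949 against 12772 to 13010 in CMT-U27, and 2563 to 2734 against 2336 to 2668 in CMT-U309. In CMT-U27 this sum is carried by S100A8 and LCP1, with mean levels of 13.06 and 12.39 there. The part of myeloid RNA in the ratios of CMT-U27 was not tested.

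Of the other ErbB ligands sought, NRG2 and NRG3 had probes. NRG2, a neuregulin, was 2.65-fold higher in CMT-U309 than in CMT-U27 (SE 0.14 on the log2 scale, adjusted p = 2.00e-05) and was the only one called. Its mean level was 13.32 for P114, 12.88 for CMT-U27 and 14.28 for CMT-U309, and the mean of its 3 co-culture ratios was 0.39 on the log2 scale. Neither gene was called in co-culture.

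Of the genes for ligand release, 7 had probes and 0 were called in co-culture. ADAM17, the main protease that cuts free the ligands of EGFR, was lower in CMT-U27, by 2.07-fold against P114 (log2 difference -1.05, SE 0.15, adjusted p = 0.000299) and by 2.27-fold against CMT-U309. TIMP3, a secreted inhibitor of that protease, was lowest in P114, 3.64-fold below CMT-U27 and 5.85-fold below CMT-U309 (adjusted p = 2.00e-06 and 4.24e-07). The 3 further TIMP3 probes gave the same directions. These were the only genes of the list called in any pair of lines. Between CMT-U27 and P114, 1 of 7 was higher and 1 lower, and in each other pair 1 was higher and 0 were lower. The shares of all probes called higher and lower were 12.6% and 11.6%, 6.85% and 7.69% (CMT-U309 minus P114), and 13.3% and 15.7% (CMT-U309 minus CMT-U27). With 7 genes, such counts lie near these shares.

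Of the adaptors and kinases downstream of the receptors, 32 had probes and 0 were called in co-culture. Between CMT-U27 and P114, 6 were higher and 2 lower, between CMT-U309 and P114 1 was lower, and between CMT-U309 and CMT-U27 1 was higher and 9 were lower. The shares of all probes called higher and lower were 12.6% and 11.6%, 6.85% and 7.69%, and 13.3% and 15.7% in this order of comparisons. PIK3R1, a regulatory subunit of PI3K, was 10.3-fold higher in CMT-U27 than in P114 and 6.19-fold higher than in CMT-U309 by its brightest probe (log2 differences 3.37 and, for CMT-U309 minus CMT-U27, -2.63, SE 0.19 for both). One further PIK3R1 probe, well above background in 2 of 4 channels of P114, gave 3.35 and -2.73. The other, well above background in all channels, gave -0.16 for CMT-U27 minus P114 and was higher in CMT-U309 than in CMT-U27. The probes of this gene thus disagree in both comparisons. BRAF, a kinase of the MAPK pathway, was 3.66-fold higher in CMT-U27 than in P114, and its second probe gave a log2 difference of 1.02.

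SHC1, an adaptor that binds activated receptors, was 3.64-fold lower in CMT-U27 than in P114 and 3.54-fold higher in CMT-U309 than in CMT-U27 (adjusted p = 5.10e-05 and 4.87e-05). Its second probe, also well above background in all channels, gave -0.83 and 0.77 on the log2 scale, below 2-fold. PTK2, the focal adhesion kinase, was 3.21-fold lower in CMT-U27 than in P114. PIK3CB, a catalytic subunit of PI3K, was lowest in CMT-U309, by 3.37-fold against P114 and 4.91-fold against CMT-U27. The median difference of this list was 0.04, -0.13 and -0.59 in the 3 comparisons, beside -0.15, -0.15 and -0.04 for all probes.

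Of the negative regulators of ErbB signalling, 19 had probes and 0 were called in co-culture. Between CMT-U27 and P114, 1 was higher and 6 were lower, between CMT-U309 and P114 2 were higher and 4 lower, and between CMT-U309 and CMT-U27 6 were higher and 1 was lower. The shares of all probes called higher and lower were again 12.6% and 11.6%, 6.85% and 7.69%, and 13.3% and 15.7%. Of the 19 genes, the counts of 6 lower, 4 lower and 6 higher lie above these shares, and the other counts lie nearer to them or below. No test of the list was made.

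ERRFI1, an inhibitor that binds the EGFR kinase, was highest in P114, 8.60-fold above CMT-U27 and 7.32-fold above CMT-U309 (adjusted p = 7.87e-08 and 2.87e-07), and its second probe gave the same order. P114 was also the line with the most EREG. LRIG3, of a family of membrane proteins that includes EGFR regulators, was dim in P114 (0 of 4 channels well above background), with CMT-U27 at least 8.04-fold and CMT-U309 at least 4.82-fold higher. LRIG1, which promotes the breakdown of ErbB receptors, was highest in CMT-U309, 2.32-fold above P114 and 3.65-fold above CMT-U27. PTPRJ, a phosphatase that acts on EGFR, was lowest in CMT-U309, by 9.95-fold against P114 and 5.42-fold against CMT-U27.

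**Figure D4:**
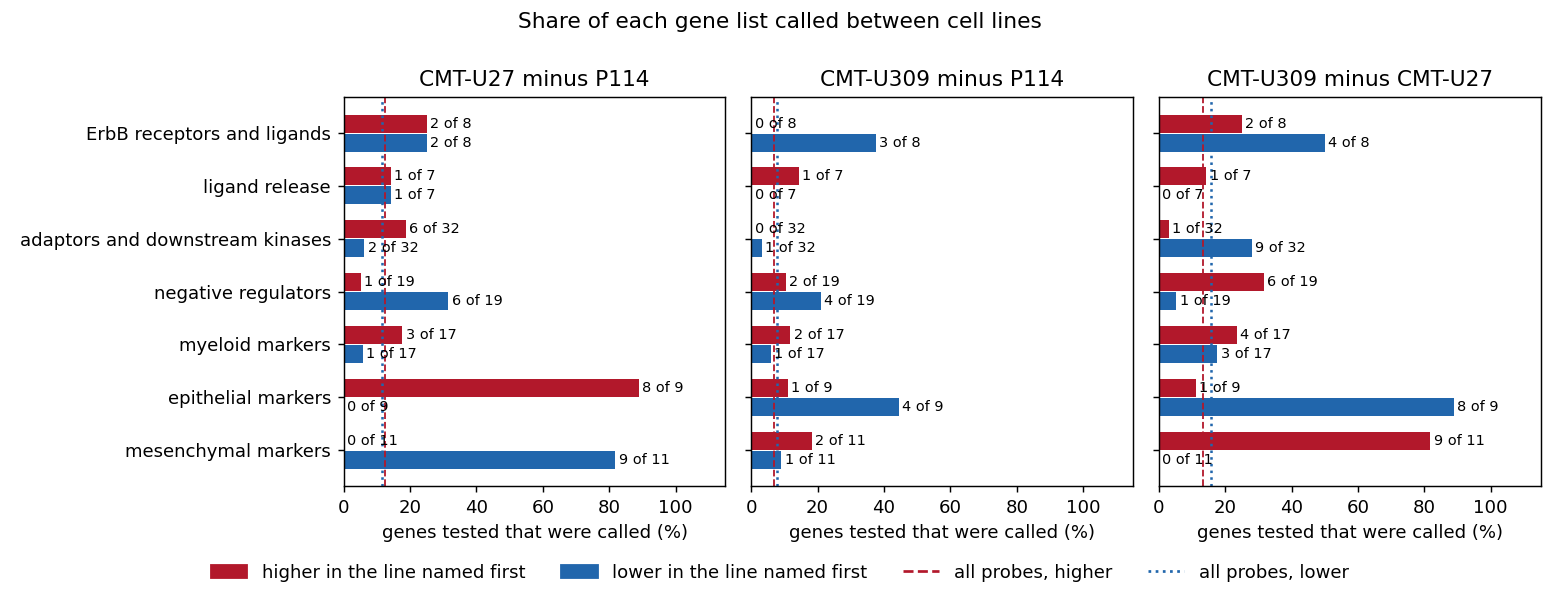
Share of the tested genes of each list (%, x axis) called higher (red) or lower (blue) in the line named first, with counts beside the bars, for the 3 pairs of lines. Dashed and dotted lines give the share of all probes called higher and lower. The epithelial and mesenchymal lists reach 8 of 9 and 9 of 11 genes in the comparisons of CMT-U27, and the downstream kinases 9 of 32 lower in CMT-U309 than in CMT-U27.

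The genes whose level was most like that of each receptor over the 6 RNA samples were found among 9735 genes well above background in every channel of at least one line. For EGFR these were PAPSS1 (Pearson's r = 0.999), RPS15 (0.996) and the locus LOC488258 (0.996). For ERBB2 they were ORAI2 (0.994), DCTN5 (0.988) and SLC37A4 (0.987), and for ERBB3 they were C9H17orf28 (0.996), SCAPER (0.995) and IL1RN (0.995). Such values are common with 6 samples that share lines and arrays, since 277, 47 and 569 of the candidates had an r above 0.95 with EGFR, ERBB2 and ERBB3.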

How the data were processed

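The authors deposited Agilent Feature Extraction output (version 10.10.1.1 per the file headers, 10.7.3.1 per the labels) with the intensity of each spot in both dyes, background-subtracted and adjusted between dyes, with low signals replaced by surrogate values, and a table of log10 ratios. The deposited log10 ratios were checked against the scanner output, run as co-culture over monoculture with a median of 0 in each array, and were used as an alternative only. The methods scale to the median array, drop a probe whose highest intensity is 10 or less, and test at p under 0.05 and over 2-fold, and these settings were kept.

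Here the log2 processed intensities were shifted so that all channels had the same median. Control and outlier spots were left out and repeated spots of a probe were averaged. The dye-swap arrays of a line were averaged. Limma 3.58.1 in R 4.3.3 (lmFit, eBayes with a trend in mean level) tested the mean of the 3 lines against 0, and the lines against each other over 6 RNA samples with the condition as a term, with Benjamini-Hochberg adjustment over 40873 probes. The members, gene lists and tests were chosen with earlier results of these data known. Each gene is represented by its brightest probe. Of each other list, up to 2 genes per direction with the largest difference among those called are named, in each comparison, and the 3 genes most like each receptor well detected in a line. One gene that this rule names is not reported here. Of the "cell type marker" genes, counts and summed signals are given. Gene names and places on canFam2 are those in the files, no other annotation was used, and exon or UTR status was not analysed here.

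Arrays with the same number share their dye orientation. Their co-culture ratios correlated across lines at -0.22, 0.03 and 0.40 for number 1 and at 0.47, 0.51 and 0.61 for number 2. Number and dye orientation cannot be told apart, and the number was not taken to pair cultures. The samples are 1 RNA pair for each line. The p-values of the co-culture test therefore measure the spread of the ratios between lines, moderated by eBayes toward probes of like level. Those of the line comparisons measure the spread between the 2 RNA samples of a line after the condition term. That spread has 2 residual degrees of freedom and is moderated in the same way. Neither set of p-values measures a spread between replicate cultures of a condition, and the number of arrays limits the precision. Both fits were tested on simulated data. Of 200 probes among 40873 given a 4-fold change, 100% passed the co-culture thresholds and 95.5% were called between CMT-U27 and P114. Of those given a 2-fold change, 53.5% passed the co-culture thresholds, whose fold limit lies at that change. Between these lines 0% were called, and 0% reached an adjusted p under 0.05. With 200 changed probes the adjustment is stricter than in the data, where 24.2% of all probes were called in this pair. The simulated rates for the lines therefore do not carry over to the data. The simulated noise was independent, without effects of dye or array. The simulated co-culture rates therefore do not carry over either. Alternatives were other background corrections and normalizations, no scaling, other filters, the methods' t-test, eBayes without a trend, single dyes, a dye block, outlier spots kept, the median over a gene's probes, and each line or RNA sample left out. Plots were drawn with matplotlib.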

Additional observations from a re-analysis of the deposited data

Results flagged for a closer look

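Cell lines whose arrays moved in opposite directions in co-culture are given here. The difference between lines was not tested, since each line has 1 pair of RNA samples, and 22.7% of all probes had both arrays of one line higher and both of another lower. For the brightest EGFR probe, both arrays of P114 were slightly lower in co-culture and both of CMT-U27 and of CMT-U309 were higher, and the mean log2 ratio exceeded that of P114 by 0.87 in CMT-U27 and by 0.49 in CMT-U309. The other EGFR probes did not show this opposition, as their P114 ratios had mixed signs or were above 0. For HBEGF, both arrays of P114 were lower and both of the other lines were higher, by 1.21 in CMT-U27 and 1.41 in CMT-U309 relative to P114, but the HBEGF ratio was measured above background only in CMT-U27.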

How the results depend on the processing

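Under the 15 alternatives for co-culture, EGFR stayed above 0 (0.14 to 0.58), ERBB2 above 0 (0.16 to 0.40) and EREG below 0 (-0.42 to -0.21). No member was called except EGF, which was not above background: with the arrays with co-culture in Cy3 only the count was 1, and without one line it ran from 0 to 1 (1 without P114). Counts over all probes moved more, from 421 higher and 78 lower to 83 and 35 with the methods' t-test, 18 lower with normexp, 280 higher with the deposited ratios, 27 and 10 with probes well above background, 176 and 410 with Cy5 only, 3270 and 2334 with Cy3 only, 2107 and 571 without P114, 123 higher without CMT-U27, and 153 and 166 without CMT-U309. After adjustment they ran from 0 to 6361, the latter without P114, with 2928 in Cy3 only, 25 without CMT-U309 and 6 with the array number as a replicate block, under which 0 members were called in co-culture and 5 between lines.

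Between lines, the count of 5 genes became 3 with normexp (EGFR, EREG and NRG1), whose offset of 50 shrinks dim probes, and 5899 of all probes were then called in place of 15343. Without one RNA sample it ran from 5 to 6. Normexp shrank NRG1 to -3.76 in CMT-U27 minus P114. It ended the ERBB3 calls (0.75 and -0.69), all HBEGF calls (0.22, -0.23 and -0.45) and EREG in CMT-U309 minus CMT-U27 (0.88, and 0.97 without CMT-U27 co-culture). HBEGF in CMT-U27 minus P114 was also lost with green channels only and with eBayes without trend (adjusted p = 0.0752). Without scaling, the median of all probes moved to 0.30, 0.63 and 0.28 in the 3 comparisons. ERBB2 in CMT-U27 minus P114 then turned from -0.34 to 0.12, ERBB2 in CMT-U309 minus P114 moved from 0.19 to 0.96, EGFR in CMT-U309 minus P114 became -0.90, and NRG1 in CMT-U309 minus P114 passed 2-fold (1.42). Signal over background limits ERBB4, EGF, HBEGF and ERBB3.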

Other observations

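Some probes outside the naming rule are described in the files as ErbB family transcripts, and were picked by that description. A probe named AREGB, described as amphiregulin B, was well above background in 4 of 4 channels of CMT-U27, 2 of 4 of CMT-U309 and 0 of 4 of P114. Its level was 4.80 in monoculture and 5.00 in co-culture of CMT-U27, 3.05 and 4.17 in P114, and 2.29 and 3.83 in CMT-U309. A probe described as betacellulin, a ligand of EGFR and ERBB4, was well above background in 1, 3 and 2 of 4 channels of P114, CMT-U27 and CMT-U309, with levels between 3.61 and 4.48. One of the 2 contig probes described as ERBB3 gave 5.43 and 6.04 in CMT-U27 against 3.67 and 3.49 in P114 and 3.75 and 4.75 in CMT-U309. The other lay between 3.08 and 4.49 in all lines. In CMT-U27 it gave 4.49 in monoculture and 3.32 in co-culture, with 2 of 4 channels well above background. A second probe described as ERBB4 was well above background in 0 of 12 channels.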
